A study of Homo sapiens with 16 samples.

Results

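PUDP, NAP1L4, GCNT2, LPGAT1, GLYR1, ENDOD1 and CCDC69 are 7 genes, of 57500 in the count table, picked by name as well-expressed genes whose reads fell in the group with an induced hairpin against AKAP2 and not in the others. They were measured by polyadenylated RNA sequencing in MDA-MB-231, a human triple-negative breast cancer line. The line carried either shScramble, a control hairpin with a scrambled sequence, or shAKAP2, a hairpin against AKAP2, and each was grown without or with doxycycline, the drug that turns on the hairpin's promoter. That gives 4 groups of 4 libraries: uninduced shScramble, induced shScramble, uninduced shAKAP2 and induced shAKAP2. The labels name biological replicates without saying whether they were separate cultures, so a p-value reflects only how these 16 libraries vary. The sources used here give no doxycycline dose, treatment time or hairpin sequence, and do not say whether each line was 1 clone.

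A short hairpin RNA is cut by the cell's microRNA enzymes into a short duplex, and 1 strand, the guide, is loaded into an Argonaute protein. A guide that pairs along its length with a transcript directs its cleavage, which is how a knockdown works. Guides also act as microRNAs do: pairing of only the guide's start, the seed, with a 3' untranslated region (3' UTR) lowers many other transcripts more mildly. The 7 genes have different jobs. These are nucleotide dephosphorylation (PUDP), histone handling (NAP1L4), glycan branching (GCNT2), phospholipid remodelling (LPGAT1), chromatin reading (GLYR1), nucleic acid cleavage (ENDOD1) and cell division (CCDC69).

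All 7 genes were among the 15566 with enough counts to be tested, and no library had fewer than 287 reads of any of them. Total counts per library ran from 24482997 to 37472525. AKAP2 itself, an anchor for protein kinase A, checks the labels: it had 42, 36, 37 and 53 reads in uninduced shAKAP2 replicates 1 to 4 and 3, 0, 1 and 0 in the induced ones (log2 fold change -5.06, SE 0.577, adjusted p = 1.25e-06, edgeR). The shScramble libraries held 22 to 87 reads of it. VIM and CD44, high in this mesenchymal line, were at 1303 to 1807 and 835 to 1142 CPM (counts scaled to the TMM-adjusted library size) across libraries, and ESR1 and PGR had at most 1 and 3 reads. ERBB2, listed as low for this line, was at 49.7 to 69.2 CPM. Summed, 7 markers of blood, endothelial and fibroblast cells were at 27.2 to 31.4 CPM in induced shScramble. In the other groups they were at 15 to 21.3 CPM. The fibroblast marker PDGFRB made the largest part in induced shScramble (mean 16.8 CPM), and the endothelial marker CDH5 had at most 4 reads. The share of reads from mitochondrial genes was lowest in induced shAKAP2 (1.02% to 2.04%) and reached 3.62% in shScramble.

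Earlier results on these libraries had drawn attention to the 7-letter word GAACACA in 3' UTRs of genes that fell, so the word is not independent of the comparison that chose the genes. The hairpin's sequence is not known here, and whether its guide pairs with the word was not tested. It is shown because 6 of the 7 genes hold it, with AKAP2 itself. In GENCODE 29 (GRCh38) it occurred in a 3' UTR of PUDP, NAP1L4, GCNT2, LPGAT1, GLYR1 and ENDOD1, once each except for GCNT2 and GLYR1 with 2 copies. CCDC69, the gene that fell least, had none in its 3' UTR of 2385 bases. Each site is printed 5′ to 3′ on the gene's strand as 30 bases, with the word in capitals.

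AKAP2, plus strand, chr9:110169242-110169271: gatctgcagtttatgaGAACACAttttcac
PUDP, minus strand, chrX:7049516-7049545: agtttattgttagtatGAACACAactgtaa
NAP1L4, minus strand, chr11:2944503-2944532: gctcggcctaaccttaGAACACAtttgtaa
GCNT2 site 1, plus strand, chr6:10627770-10627799: ttgtagtttaatacagGAACACAcagggct
GCNT2 site 2, plus strand, chr6:10628308-10628337: ggatgacacatttaatGAACACAattttat
LPGAT1, minus strand, chr1:211745445-211745474: attgtgtaaaactgttGAACACAtgactgt
GLYR1 site 1, minus strand, chr16:4803609-4803638: tgaagcatttctgtctGAACACAaagcctg
GLYR1 site 2, minus strand, chr16:4803581-4803610: tgttctagtcctggcgGAACACActggggg
ENDOD1, plus strand, chr11:95132417-95132446: caaaacctagtggagaGAACACAtggtaca

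Counted on both sides of the word, the match to the AKAP2 site ran unbroken for 11 bases in NAP1L4, 10 in ENDOD1 and 8 in LPGAT1, and for the word's 7 bases only in the sites of PUDP, GCNT2 and GLYR1. Of the 14 bases before the word, PUDP and NAP1L4 matched AKAP2 at 6, LPGAT1, ENDOD1 and the second GCNT2 site at 4, and the remaining sites at 2 or 3. Over all 1975 sites in the longest 3' UTRs of tested genes the median was 4, and 45.5% matched over the word's 7 bases only, 31.5% over 8, 4.71% over 10 and 2.23% over 11. The overlapping readthrough gene PALM2-AKAP2, on the same strand, holds the AKAP2 site itself (log2 fold change -2.71, SE 0.851), and reads of these 2 genes may be split uncertainly. The word with an A after it, GAACACAA, stood in PUDP, GCNT2 and GLYR1, the genes that fell most, and in 3.22% of the longest 3' UTRs. With an A before it, AGAACACA, it stood in NAP1L4 and ENDOD1 and in 5.33%. LPGAT1 had neither. These longer words were chosen after the sites were seen.

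The word lay 761 bases past the stop codon in AKAP2 and 767 in PUDP, but 4441 bases past it in LPGAT1. In NAP1L4 and ENDOD1 it lay near the end of the 3' UTR, at 1163 of 1242 bases and 2854 of 3066. The GLYR1 copies began 28 bases apart and those of GCNT2 538 bases apart. Not all annotated transcripts keep the sites. Those that do numbered 2 of 4 protein-coding transcripts for PUDP, 2 of 3 for NAP1L4, 4 of 5 for GCNT2, 1 of 2 for LPGAT1, 3 of 5 for GLYR1 and 1 of 1 for ENDOD1, and reads per gene do not say which were present.

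**Figure D1:**
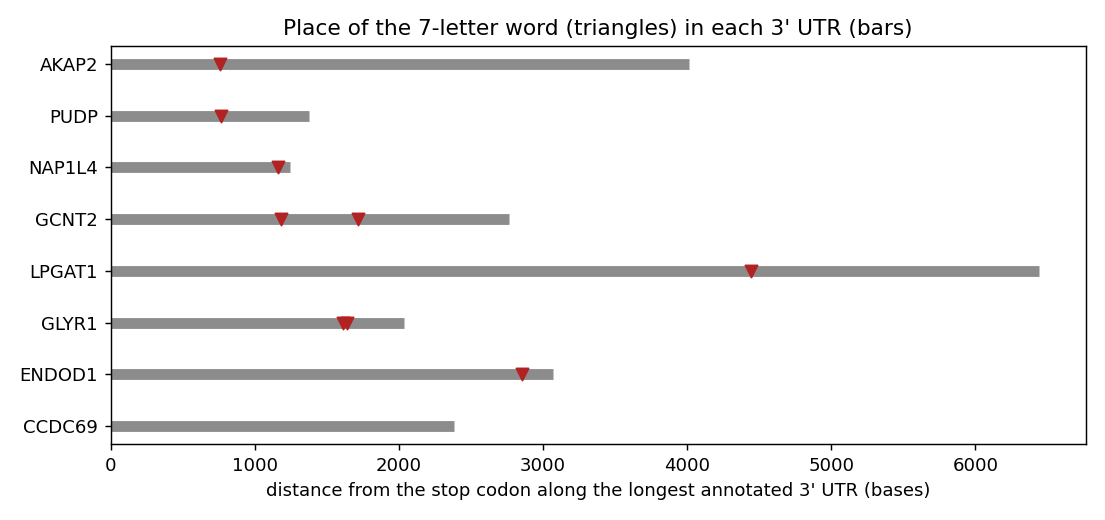
Distance in bases from the stop codon along the longest annotated 3' UTR of AKAP2 and the 7 genes (bars), with each copy of GAACACA as a triangle. Copies lie between 761 bases (AKAP2) and 4441 bases (LPGAT1) past the stop codon, and CCDC69 has none.

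Because the word was drawn from genes that fell in these libraries, the comparisons below are no separate support for it. Among 12829 tested genes with an annotated 3' UTR, 12.8% held the word in the longest one. Among 3' UTRs as long as those of the 7 genes (1242 to 6442 bases) the share was 17.7%. In that length range 40.9% of genes with the word were called lower on induction of shAKAP2 and 6.32% higher, against 15.2% lower and 17.3% higher of those without it. Most holders moved far less than the 7 genes: the median log2 fold change of all 1645 holders was -0.26, with quartiles of -0.64 and 0.04. Of the 1645, 50 fell as far as the median of the 7 genes, 4 of the 7 among them, and of the 11184 without the word 77 did. Among genes with a mean level at least that of the lowest of the 7, 9 of 524 holders, again with those 4, and 1 of 3473 without the word fell as far. Leaving out the 7 genes, 49.5% of 410 genes with GAACACAA were called lower (median log2 -0.40), 41.3% of 682 with AGAACACA (-0.26) and 38.2% of 723 with neither added letter (-0.22). The longer words were chosen after the sites of the 7 were seen, so their order is a description with no test. Leaving out the 7 genes does not undo this, as the word itself came from falls in these libraries. In shScramble the median effect of doxycycline on the 1645 holders was 0.02. The word was absent from the coding sequence of all 7 genes and stood in that of 14.2% of genes, and 1 of the 7, GCNT2, also holds it in a 5' UTR. The reverse complement of the word stood in the longest 3' UTR of 3 of the 7 genes and of 19% of genes.

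**Figure D2:**
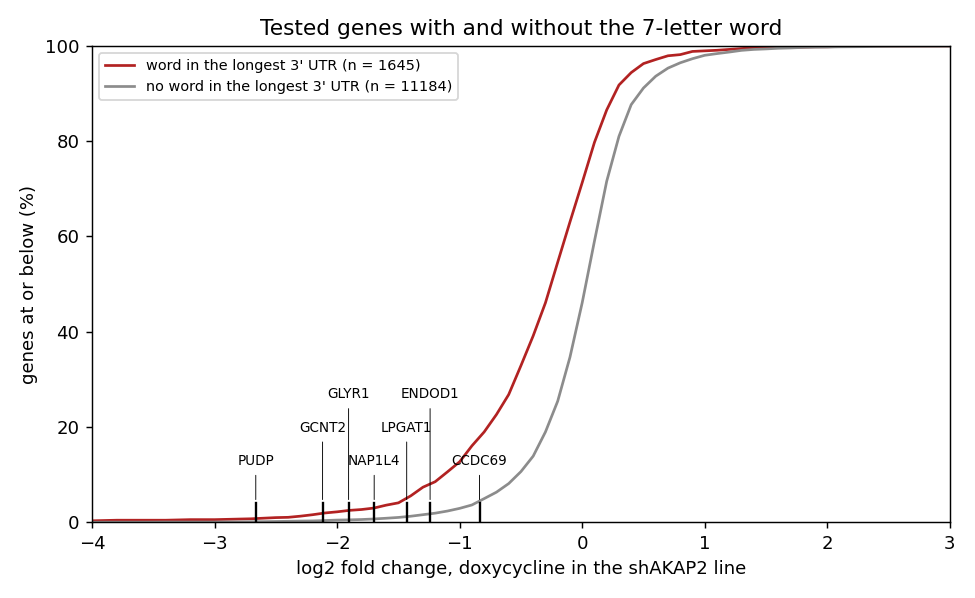
Share of tested genes (percent, vertical axis) at or below each log2 fold change on induction of shAKAP2, for 1645 genes with and 11184 without the word in the longest 3' UTR; short black lines mark the 7 genes. The curve of holders lies to the left, with a median of -0.26, and 6 of the 7 genes lie below -1. The word was drawn from genes that fell in these libraries, so the curves are not independent of it.

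The values that chose the genes are those of the shAKAP2 doxycycline comparison and its contrast with shScramble, so the differences that follow are descriptions with no test. Over all genes, 15.2% were called lower in shAKAP2 with doxycycline. Ordered by the p of that comparison, PUDP stood 1st of 15566, NAP1L4 3, GCNT2 6, LPGAT1 8, GLYR1 9, ENDOD1 25 and CCDC69 141. The selection gives no threshold. Many unselected falls ranked between them, of which the 5 with the smallest p are named here. These were ATL3, which shapes the endoplasmic reticulum (log2 -1.89), the iron regulatory protein gene ACO1 (-2.12) and the ATP synthase subunit gene ATP5MF (-2.23). With them were TFG (-1.62) and the coat protein gene SEC23A (-1.62) of the early secretory pathway. All 5 hold the word, as did 38 of the remaining 49 unselected genes among the first 60 falls. Of all tested genes with a 3' UTR, 12.8% hold it in the longest one. Earlier results drew the word from genes that fell in these libraries, so these counts are no separate support for it.

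PUDP encodes a phosphatase that removes the phosphate from pseudouridine monophosphate, a product of RNA breakdown. The gene (ENSG00000130021; GRCh38 chromosome X, 7048920 to 7148190, minus strand) stood at 74.8, 75.5, 74.7 and 78.3 CPM in uninduced shAKAP2 and at 11.8, 11.6, 13.3 and 11.1 CPM in induced shAKAP2. In shScramble it was at 72.5, 87.1, 84.8 and 81.2 CPM without and 96.7, 98.8, 106 and 101 CPM with doxycycline. The induced shAKAP2 libraries are far below the rest: the lowest of the other 12 libraries was 5.43 times the highest of them. The log2 fold change was -2.66 (SE 0.0773), which left 15.8% of the uninduced level, while shScramble with doxycycline lay wholly above shScramble without it (log2 0.31, SE 0.07).

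NAP1L4 encodes a chaperone that carries histones H2A and H2B to and from nucleosomes. Its gene (ENSG00000205531; chromosome 11, 2944431 to 2992377, minus strand) was at 193, 186, 192 and 197 CPM in uninduced and 54.9, 63.2, 61.6 and 56.7 CPM in induced shAKAP2. The shScramble libraries were at 173, 177, 188 and 186 CPM without and 170, 176, 177 and 174 CPM with doxycycline. Those 8 libraries overlapped, and 30.8% of the uninduced level was left in induced shAKAP2 (log2 -1.70, SE 0.06).

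GCNT2 encodes the enzyme that adds branches to linear poly-N-acetyllactosamine chains and so makes the I blood group antigen. It (ENSG00000111846; chromosome 6, 10492223 to 10629368, plus strand) fell from 164, 162, 168 and 165 CPM to 33.8, 37.9, 44.7 and 35.5 CPM on induction of shAKAP2, with 23% left (log2 -2.12, SE 0.0838). The shScramble libraries were at 157, 149, 160 and 165 CPM without and 186, 158, 164 and 148 CPM with doxycycline. The SD was 15.9 CPM around a mean of 164 in induced shScramble (9.69% of the mean) and 4.78 around 38.0 in induced shAKAP2 (12.6%), and both shScramble groups overlapped.

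LPGAT1, an acyltransferase of the endoplasmic reticulum, acylates lysophosphatidylglycerol and other lysophospholipids. Its gene (ENSG00000123684; chromosome 1, 211743457 to 211830772, minus strand) had the smallest pooled SD of log2 CPM within groups of the 7 (0.0574). Levels were 131, 135, 133 and 135 CPM in uninduced shAKAP2, 137, 133, 125 and 139 CPM in uninduced shScramble and 125, 135, 134 and 137 CPM in induced shScramble. In induced shAKAP2 they were 49.3, 48.8, 47.1 and 52.6 CPM, which left 37% (log2 -1.43, SE 0.0601). The means of the other 3 groups lay between 133 and 134 CPM.

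GLYR1, also called NPAC, has a PWWP domain, which reads methylated histone H3, and is the cofactor of the histone demethylase KDM1B. The gene (ENSG00000140632; chromosome 16, 4803203 to 4847342, minus strand) fell from 79, 72.7, 76.4 and 73.5 CPM to 19.5, 19.7, 22.3 and 18.9 CPM in shAKAP2 (log2 -1.91, SE 0.0837, 26.7% left). In shScramble it was at 58.6, 71.8, 69.4 and 66.8 CPM without and 64.5, 69.4, 76.2 and 78.2 CPM with doxycycline, and those groups overlapped. Uninduced shAKAP2 lay just above uninduced shScramble without overlap (log2 0.18, SE 0.0792). GLYR1 shares 115 exonic bases, 2.91% of its own, with UBN1 on the opposite strand, and the sources used here do not say whether counting used strand. UBN1 itself had a log2 fold change of -0.10 (SE 0.116).

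ENDOD1 encodes a protein with a predicted DNA and RNA endonuclease domain. This gene (ENSG00000149218; chromosome 11, 95089810 to 95132645, plus strand) moved in opposite directions in the lines. In shAKAP2 it went from 185, 186, 181 and 200 CPM to 79, 75.1, 81 and 83 CPM (log2 -1.24, SE 0.0642, 42.3% left). In shScramble it went from 155, 160, 135 and 148 CPM to 196, 211, 194 and 200 CPM (log2 0.42, SE 0.063), again without overlap. Before induction the shAKAP2 line was already higher than shScramble (log2 0.33, SE 0.063).

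CCDC69 encodes a coiled-coil protein that regulates assembly of the central spindle, the microtubule bundle between separating chromosomes. It (ENSG00000198624; chromosome 5, 151181052 to 151224145, minus strand) was the only one of the 7 that stood lower in uninduced shAKAP2 than in uninduced shScramble without overlap. Those levels were 53.8, 48.3, 52.6 and 49.1 CPM against 87.3, 79.1, 80.8 and 75.7 CPM (log2 -0.66, SE 0.0687). Induction took it to 30.3, 28.3, 29.5 and 25.8 CPM (log2 -0.84, SE 0.0702, 55.9% left). In induced shScramble it was higher, at 94.6, 101, 101 and 99.3 CPM (log2 0.29, SE 0.0679). A low level of CCDC69 was thus not a feature of induced shAKAP2 only, although those libraries were the lowest. GM2A overlaps it on the opposite strand and shares 0 exonic bases with it.

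**Figure D3:**
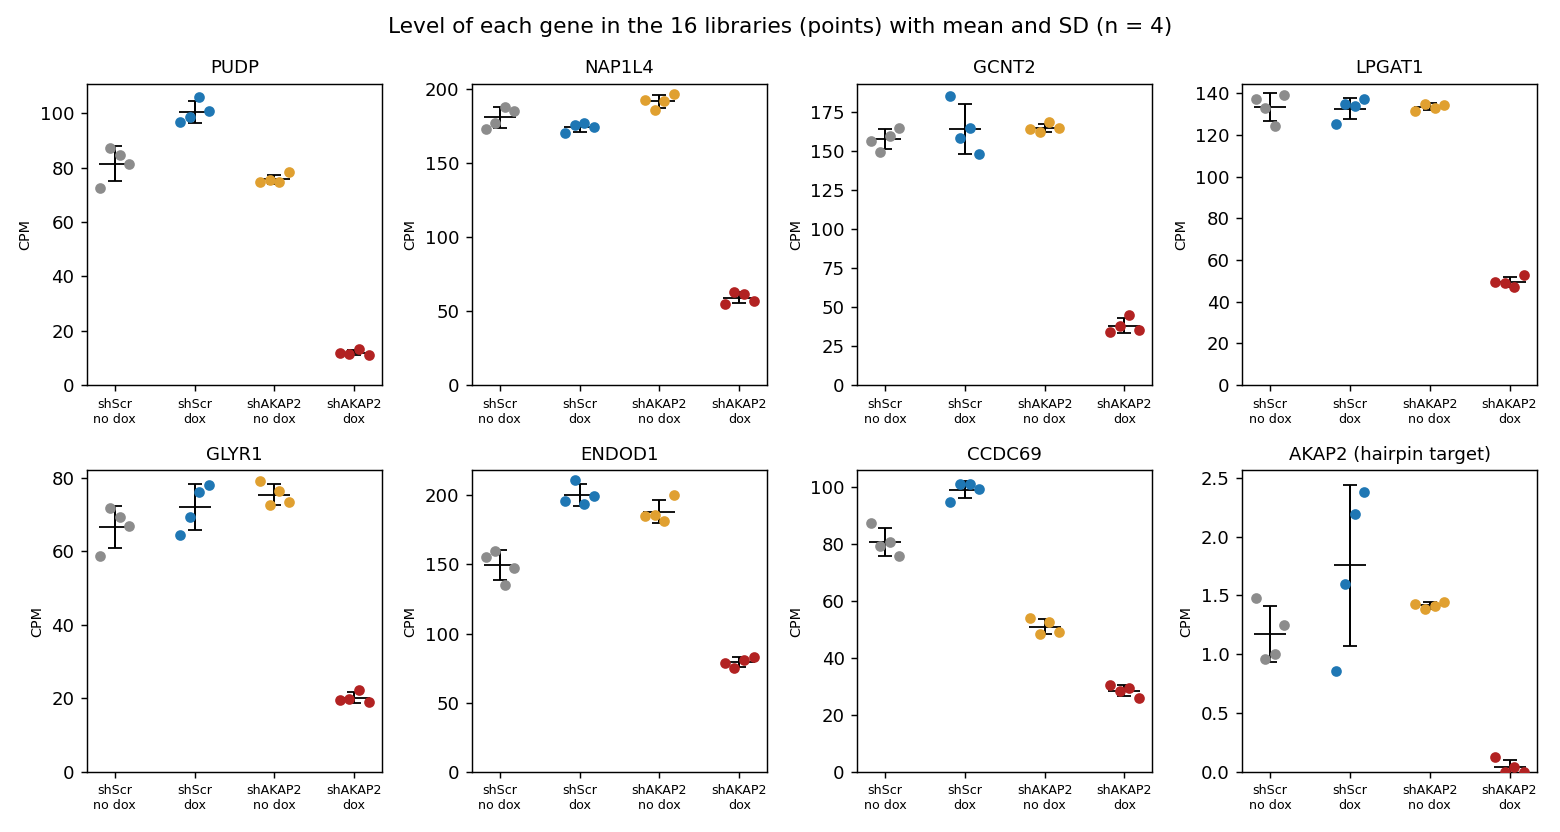
CPM (vertical axis, from 0) of the 7 genes and AKAP2 in each of the 16 libraries (points, replicates 1 to 4 from left to right), with the mean and SD of each group (n = 4). The 4 induced shAKAP2 libraries are the lowest in every panel, and PUDP, ENDOD1 and CCDC69 are higher in induced than in uninduced shScramble.

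For all 7 genes the 4 induced shAKAP2 libraries lay below the other 12. This held for 9.73% of the 15566 genes, and 18.1% lay below the 4 uninduced shAKAP2 libraries, but the 7 were chosen for it. The median log2 fold change of the 7 was -1.70, from -2.66 to -0.84, beside 0.00 over all genes tested. The doxycycline effects in the lines differed by -2.97 (PUDP) to -1.13 (CCDC69) on the log2 scale, with a median of -1.66. Induced shAKAP2 against induced shScramble gave a median of -1.80, and these contrasts share libraries.

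Without the shAKAP2 hairpin's induction the 7 genes divided into those that hardly differed and those that did. NAP1L4, GCNT2, LPGAT1 and GLYR1 had shScramble doxycycline effects between -0.05 and 0.11 on the log2 scale. PUDP, ENDOD1 and CCDC69 rose without overlap. Of all genes, 4.43% separated in either direction. The contrast with shScramble helped to choose the 7 genes, so these rises are a description with no test. The summed markers of other cell types were also higher in induced shScramble, as given above, and their part in these rises was not tested. Leaving out both shScramble replicate 1 libraries, the differences were 0.28 for PUDP, 0.45 for ENDOD1 and 0.36 for CCDC69. Between the uninduced lines GLYR1, ENDOD1 and CCDC69 did not overlap, and 25.5% of all genes did not.

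**Figure D4:**
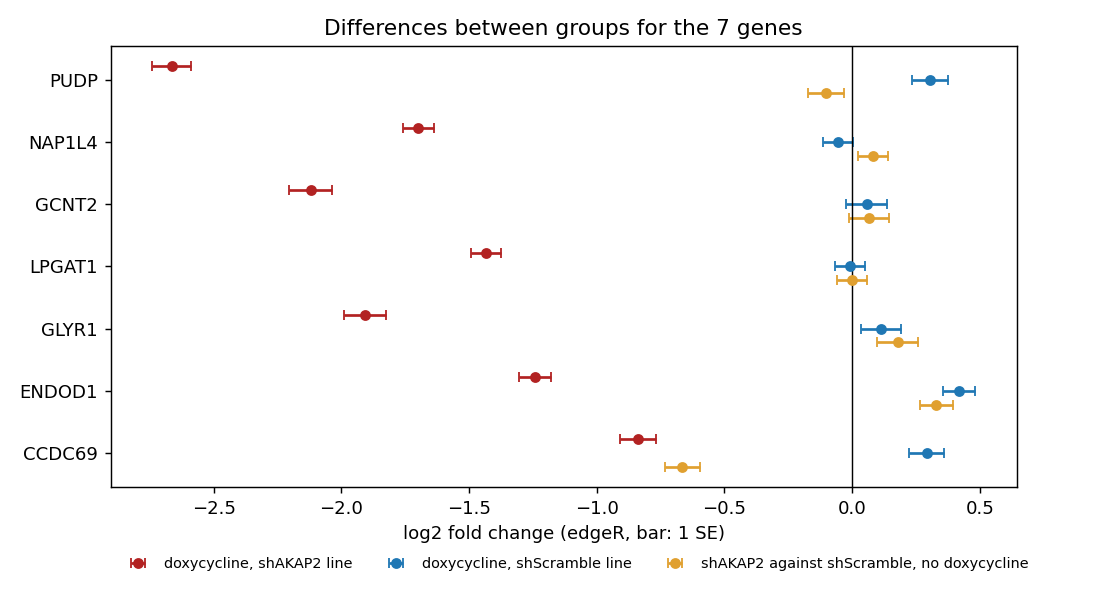
Log2 fold change (horizontal axis) with 1 SE for the 7 genes: doxycycline in shAKAP2 (red), doxycycline in shScramble (blue) and the lines without doxycycline (yellow). Red points lie between -2.66 and -0.84, blue points between -0.05 and 0.42, and the yellow point of CCDC69 is at -0.66.

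Over the 16 libraries the log2 CPM of the 7 genes ran together, with Pearson's r of 0.81 to 0.99 in their 21 pairs (median 0.96). All pairs with CCDC69 were below 0.91. Once each group's mean was taken out, r ran from -0.57 (GCNT2 with LPGAT1) to 0.82 (PUDP with GLYR1), with a median of -0.06. The common course thus lies in the group means, from which the genes were chosen, and these points share libraries. Among 12856 genes with a mean of at least 1 CPM, those most like the mean profile of the 7 were TFG (r = 0.995), the p38 kinase gene MAPK14 (0.994), the late endosome GTPase gene RAB7A (0.993), the focal adhesion kinase gene PTK2 (0.993), ACADM of fatty acid oxidation (0.991), PAIP1 (0.991), GNB5 (0.991), AZIN1 (0.991), ACO1 (0.990) and the cytokine receptor gene IL6ST (0.990). All 10 hold the word, which was drawn from falls in these same libraries. Of tested genes with a 3' UTR, 12.8% hold it in the longest one. The log2 fold changes of the 10 in shAKAP2 ran from -2.12 (ACO1) to -0.79 (GNB5). TFG, the closest, was at 133 CPM in uninduced and 43.2 CPM in induced shAKAP2, and at 142 and 147 CPM in shScramble. The nearest gene was PTK2 for PUDP (0.995), COPS2 for NAP1L4 (0.993), RAB7A for GCNT2 (0.996), ARF6 for LPGAT1 (0.996), EFNB2 for GLYR1 (0.992), NRP2 for ENDOD1 (0.983) and SMARCA1 for CCDC69 (0.990). PTK2, RAB7A, ARF6 and EFNB2 hold the word and the other 3 do not.

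Relatives of the 7 genes by family or pathway were listed, and with them 17 genes of small RNA silencing that belong to none of the 7. All are counted below as relatives. They were not used to choose the 7 genes and could be tested, but the lists were made with earlier results of these data known. Of 203 tested over 8 lists, 28 rose and 37 fell on induction of shAKAP2 at an adjusted p under 0.05 (edgeR, over all genes), or 32%, beside 28.3% of all genes (13.1% higher, 15.2% lower). The median log2 fold change of the relatives was 0.05 and that of all genes 0.00. None fell as far as PUDP. In shScramble 0 rose and 2 fell (1.08% of all genes were called, 0.559% higher and 0.52% lower), and 15 had a higher and 21 a lower effect in shAKAP2 than in shScramble (18% of all genes, 7.53% higher and 10.5% lower). Without both shScramble replicate 1 libraries the relatives called in shAKAP2 were 48 higher and 50 lower, and those that differed between the lines 40 higher and 39 lower. All-gene calls grew too in that setting: 48.3% of relatives beside 39.4% of all genes were called in shAKAP2, and 38.9% beside 30.6% differed between the lines. Of the 37 that fell 12 hold the word, of the 28 that rose 2 do, and of the 137 not called with a 3' UTR 17 do. Among all tested genes with a 3' UTR, 671 called lower hold the word in the longest one and 1499 do not. Of those called higher, 109 hold it and 1805 do not. The word was drawn from falls in these libraries, so these counts are no separate support for it. MORF4L1, among the 12 relatives that fell and hold the word, fell in shScramble too (log2 -0.87, beside -0.86 in shAKAP2).

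Among 30 phosphatases of PUDP's haloacid dehalogenase (HAD) superfamily and pseudouridine synthases, 2 rose and 3 fell. ENOPH1, a HAD enzyme of methionine salvage that holds the word, fell from 109 ± 2.63 to 41.2 ± 3.97 CPM (SD, n = 4; log2 -1.41, SE 0.0886, adjusted p = 2.41e-10). The pseudouridine synthase RPUSD3 (log2 -0.55, SE 0.0951) and the nucleotidase NT5C (log2 -0.37, SE 0.108) fell less, and NT5C3A rose (log2 0.30, SE 0.0862). The last lost its call without induced shAKAP2 replicate 4 (adjusted p = 0.052, edgeR).

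Of 28 histone chaperones related to NAP1L4, 7 rose and 3 fell. NAP1L1, its closest relative in the list, did not pass the test (log2 -0.02, SE 0.0494, adjusted p = 0.787, edgeR), with means of 1023 ± 12.3 CPM before and 1008 ± 16.8 CPM after induction (SD, n = 4). ASF1B, which hands over histones H3 and H4, rose (log2 0.57, SE 0.0766), as did TSPYL5 (log2 0.48, SE 0.0942). CHAF1B, of chromatin assembly factor 1, fell (log2 -0.53, SE 0.106). SET fell in shAKAP2 (log2 -0.40, SE 0.0656) and in shScramble (log2 -0.45, SE 0.0657). SET and NAP1L1 have near copies in the genome, so their counts are uncertain. Without uninduced shAKAP2 replicate 1 the chaperones called were 6 in place of 10 (23.1% of all genes were called in that setting), and with the 8 shAKAP2 libraries alone 17 (43.5% of all genes).

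Of 28 glycosyltransferases that build or branch the chains on which GCNT2 acts, 3 rose and 5 fell. GCNT1, which makes core 2 branches, had a small fall (log2 -0.26, SE 0.0947, adjusted p = 0.0416, edgeR) that lost its call without any one of the 8 shAKAP2 libraries and without shScramble replicate 2 of either condition. The sialyltransferase gene ST3GAL5 fell from 15.3 ± 1.01 to 6.15 ± 0.922 CPM (SD, n = 4; log2 -1.31, SE 0.213). The galactosyltransferase genes moved apart, B4GALT3 up (log2 0.68, SE 0.076) and B4GALT5 down (log2 -0.36, SE 0.065). B3GNT2, which extends poly-N-acetyllactosamine, rose (log2 0.27, SE 0.0775) and lost its call without uninduced shAKAP2 replicate 3 (adjusted p = 0.0514, edgeR). Leaving out uninduced replicate 3 left 4 of the 8 called, and leaving out uninduced replicate 4 or induced replicate 2 or 4 of shAKAP2 left 5.

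Acyltransferases and enzymes of phosphatidylglycerol synthesis, the company of LPGAT1, had 4 higher and 6 lower of 27. LCLAT1, which acylates lysocardiolipin and is the relative closest to LPGAT1, fell (log2 -0.65, SE 0.0925, adjusted p = 1.87e-05, edgeR), as did GPAT2 (log2 -0.95, SE 0.107) and AGPAT3 (log2 -0.57, SE 0.0787). All 3 hold the word. CDS1, a CDP-diacylglycerol synthase, rose (log2 1.11, SE 0.145) and holds it too.

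Among 27 genes of the KDM1B complex, histone H3 lysine 36 methylation and PWWP readers, in which GLYR1 works, 3 rose and 9 fell. That is 44.4%, beside 28.3% of all genes. Of the 27, 1 had a higher and 3 a lower effect in shAKAP2 than in shScramble. That is 14.8%, beside 18% of all genes. KDM1B, whose cofactor GLYR1 is, rose slightly (log2 0.34, SE 0.106, adjusted p = 0.0198, edgeR), a call lost without uninduced shAKAP2 replicate 1 or 3 or induced replicate 1 or 4. The methyltransferase gene SETD2 (log2 -0.85, SE 0.0963), the PWWP gene HDGFL3 (log2 -0.89, SE 0.0743) and ZMYND11 (log2 -0.54, SE 0.0584) fell. MORF4L1, a chromodomain reader, fell by the same amount in both lines, from 384 ± 7.3 to 211 ± 11.1 CPM in shAKAP2 and from 396 ± 9.53 to 217 ± 12.5 CPM in shScramble (SD, n = 4; log2 -0.86 and -0.87). The difference between the lines for MORF4L1 was 0.01 (SE 0.0809, adjusted p = 0.948, edgeR). MORF4L1 and HDGFL3 hold the word, and SETD2 and ZMYND11 do not. HIBADH, which shares a dehydrogenase fold with GLYR1, did not pass the test (log2 0.19, SE 0.115, adjusted p = 0.229). MORF4L1 has near copies and its counts are uncertain.

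Of 26 DNA nucleases and cytosolic DNA sensing genes listed for ENDOD1, 5 rose and 2 fell. Those named by p moved little: BANF1, which coats cytosolic DNA (log2 0.34, SE 0.0676), the repair nuclease ERCC5 (log2 0.55, SE 0.141) and RNF26 (log2 0.29, SE 0.074) rose, and the junction nuclease MUS81 fell (log2 -0.44, SE 0.0989). Central spindle and cytokinesis genes, listed for CCDC69, had 2 higher and 4 lower of 20. INCENP, the scaffold of the chromosomal passenger complex, fell (log2 -0.71, SE 0.135), as did the citron kinase gene CIT, which holds the word (log2 -0.72, SE 0.137). AURKB, the kinase of that complex, rose (log2 0.56, SE 0.118), and the kinesin gene KIF14 fell (log2 -0.39, SE 0.131). The count of 6 for this list ranged from 3 to 10 when single libraries were left out, was 3 without the filter on low counts (12.6% of all genes called) and was 16 without both shScramble replicate 1 libraries (39.4%). The lower value was reached without uninduced replicates 2, 3 or 4 or induced replicates 2, 3 or 4 of shAKAP2, and the higher without uninduced shScramble replicate 1. KIF14 lost its call in those same 6 shAKAP2 cases and without the filter (adjusted p = 0.101).

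The machinery through which a hairpin acts was listed as well. Of 17 genes of small RNA silencing, 2 rose and 5 fell on induction of shAKAP2, or 41.2% beside 28.3% of all genes. In shScramble 0 were called, beside 1.08% of all genes. The response differed between the lines for 4, or 23.5% beside 18% of all genes. TNRC6B, the scaffold that Argonaute proteins recruit, fell from 25.2 ± 2.24 to 12.5 ± 1 CPM (SD, n = 4; log2 -1.01, SE 0.13, adjusted p = 6.25e-06, edgeR), and AGO3 from 14.3 ± 0.924 to 7.14 ± 0.742 CPM (log2 -1.003, SE 0.131). AGO1 also fell (log2 -0.76, SE 0.108) and AGO4 rose (log2 0.67, SE 0.141). TNRC6B and AGO3 hold the word and AGO1 and AGO4 do not. For TNRC6B, AGO3 and AGO1 the lines differed in their response (log2 -1.16, -1.05 and -0.66, adjusted p = 0.00013, 0.000352 and 0.00432 in edgeR's interaction test).

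**Figure D5:**
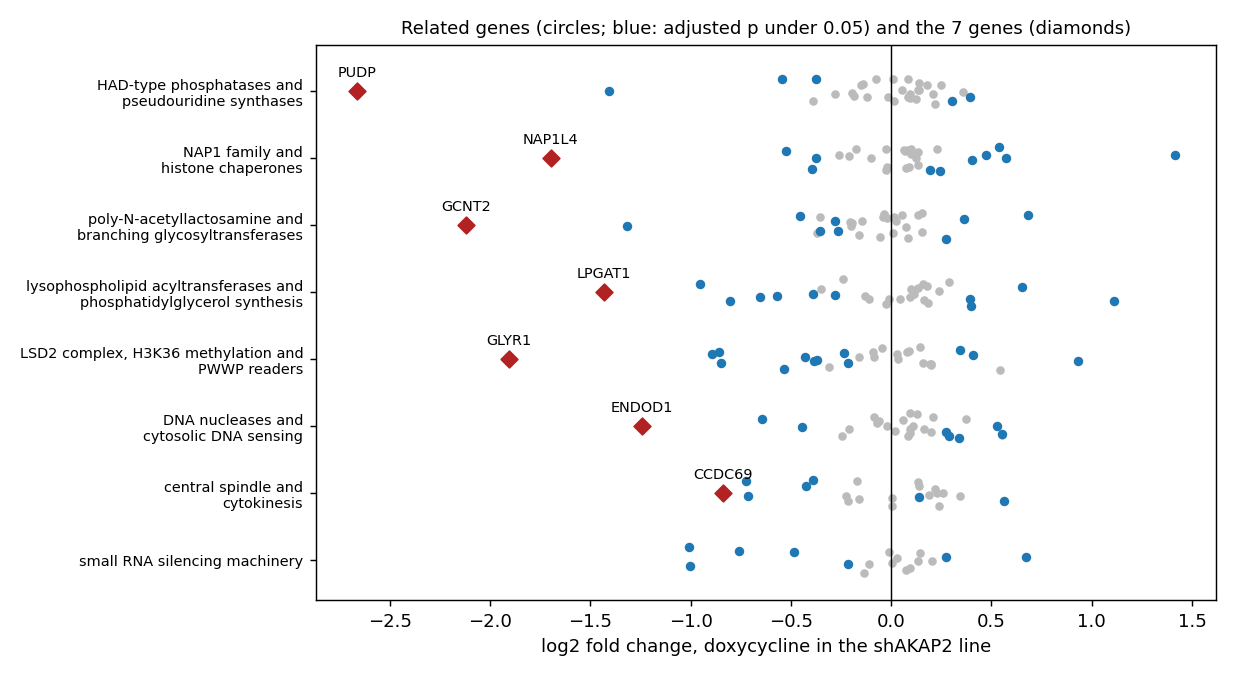
Log2 fold change on induction of shAKAP2 (horizontal axis) of tested relatives in the 8 lists (circles, blue where the adjusted p is under 0.05) with the gene among the 7 that each list belongs to (red diamond; none for small RNA silencing). Each diamond lies to the left of all circles in its list, and ENOPH1, at -1.41, is the lowest circle.

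Position on the chromosome was not used to choose the genes either. Of the 28 nearest tested genes, 2 on each side of each of the 7, 7 fell and 2 rose on induction of shAKAP2, or 32.1% beside 28.3% of all genes (edgeR, adjusted p under 0.05). By direction, 25% were lower, beside 15.2% of all genes. With only the nearest gene on each side, 6 of 14 fell and 0 rose (42.9% lower), with a median log2 fold change of -0.39. C6orf52, next to GCNT2, fell most (log2 -1.02, SE 0.129), then ROGDI next to GLYR1 (-0.83, SE 0.158), the steroid sulfatase gene STS near PUDP (-0.71, SE 0.0905) and GM2A beside CCDC69 (-0.54, SE 0.105). SRSF8 (-0.39), PRKX (-0.38) and ANXA6 (-0.17) also fell, and SLC36A1 (1.06) and KDM4D (0.93) rose. The nearest tested gene was not always close: PRKX ends at base 3713608 and PUDP starts at 7048920. ROGDI, at a mean of 3.65 CPM, ends at 4802950 on the same strand as GLYR1, which starts at 4803203. The part of distance in these changes was not tested. Neighbours of NAP1L4 and LPGAT1 were not called, at log2 -0.53 to 0.06 and -1.53 to 0.04. The value of -1.53 belongs to AC096637.2, an RNA with a mean of 0.243 CPM. None of the 9 that were called holds the word, which 12.8% of tested genes with a 3' UTR hold in the longest one. PAK1IP1, a neighbour of GCNT2 that was not called, holds it. ANXA6 lost its call without any one of the 8 shAKAP2 libraries, without uninduced shScramble replicate 2, without induced shScramble replicate 3 and without the filter on low counts.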

How the data were processed

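The authors deposited raw counts, unnormalized read totals of 57500 genes in 16 libraries, whose column names were matched to the labels. The tools listed were Subread 1.5.2, featureCounts and STAR 2.5.2b, with the GRCh38 build, per the submitters' processing notes. The sources used here give neither annotation release nor strand use. Counts were analysed with edgeR 4.0.16 in R 4.3.3: filterByExpr left 15566 genes, libraries were scaled by TMM, and a robust quasi-likelihood model with 4 group means was fitted to all 16 libraries (12 residual degrees of freedom). A gene was called where its p, adjusted by Benjamini-Hochberg across the 15566 genes, was under 0.05. SEs derive from the F statistic. Scripts were tested on simulated data. Total counts of 24482997 to 37472525 per library set the precision.

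The 7 genes, the lists, the word and the left-out libraries were chosen with earlier results of these data known. Genes were named by rule: AKAP2, the 7, up to 4 called relatives per list with the smallest p, 5 paralogs or partners (NAP1L1, GCNT1, LCLAT1, HIBADH, KDM1B), called neighbours, the 5 unselected falls with the smallest p, and genes of highest correlation. Identifiers were matched to GENCODE 29 (56898 of 57500), whose transcripts gave 3' UTRs. DESeq2 1.42.0, limma-voom (limma 3.58.1), other scalings and filters, left-out libraries and a replicate block were tried as alternatives.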

Additional observations from a re-analysis of the deposited data

Results flagged for a closer look

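PUDP, ENDOD1 and CCDC69 were singled out because every induced library lay below the uninduced ones in shAKAP2 and above them in shScramble. The doxycycline effects of the lines differed by log2 -2.97 for PUDP, -1.66 for ENDOD1 and -1.13 for CCDC69; as the genes were chosen on this contrast, the difference was not tested.

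Among 45 named relatives and neighbours, 33 responded differently in the 2 lines by edgeR's interaction test (adjusted p under 0.05), beside 18% of all genes; they were named for their response in shAKAP2, which this difference shares. The difference, shAKAP2 minus shScramble in log2 units, was -1.22 for ENOPH1 and -0.45 for RPUSD3. Among chaperones it was 0.66 for ASF1B and 0.49 for TSPYL5. Among glycosyltransferases it was -1.46 for ST3GAL5, -0.50 for B4GALT5, -0.53 for GCNT1 and 0.67 for B4GALT3. Among acyltransferases it was -0.81 for GPAT2, -0.51 for AGPAT3, -0.61 for LCLAT1 and 0.74 for CDS1. Among chromatin readers it was -0.95 for HDGFL3, -0.59 for ZMYND11 and -0.93 for SETD2. For DNA nuclease and sensing genes it was 0.37 for BANF1, -0.45 for MUS81, 0.59 for ERCC5 and 0.41 for RNF26. For central spindle genes it was -0.68 for INCENP, -0.72 for CIT and 0.67 for AURKB, and for silencing genes -1.16 for TNRC6B, -1.05 for AGO3 and -0.66 for AGO1. Neighbours differed by -0.51 for PRKX, -0.69 for STS, -0.97 for C6orf52, -0.67 for ROGDI, -0.44 for SRSF8, -0.40 for ANXA6, -0.60 for GM2A and 1.3 for SLC36A1.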

How the results depend on the processing

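The values of the 7 genes hardly depended on the processing. In 651 values over 4 contrasts and all alternatives that gave them, 0 moved by more than a gene's SD of log2 CPM between replicates. All 7 genes kept induced shAKAP2 below the other libraries in every alternative in which this was counted. The lowest other library was 1.59 (CCDC69) to 5.43 (PUDP) times the highest induced one. Rescaling or leaving out libraries could hardly undo that, and the genes were chosen for it, so it is no check of them. Leaving out single libraries gave a median of the 7 of -1.73 to -1.66. Counts over all genes moved more. Leaving out single libraries gave 3595 to 5144 calls for doxycycline in shAKAP2 (4405 with all), 101 to 409 in shScramble (168), 2249 to 3622 for the interaction (2802), 1669 to 3941 for the lines without doxycycline (2795), 47 to 76 relatives called in shAKAP2 (65), 29 to 57 for the interaction (36) and 8 to 10 neighbours (9). In shScramble the most calls came without uninduced replicate 1 (409) or induced replicate 1 (404), and counts of 101 to 111 without uninduced replicates 2 or 4 or induced replicates 2, 3 or 4; between the uninduced lines, 1669 and 1749 came without shAKAP2 replicates 1 and 2. The 57 relatives came without uninduced shScramble replicate 1. Without both shScramble replicate 1 libraries calls were 6202 in shAKAP2, 1002 in shScramble, 4823 for the interaction, 98 relatives in shAKAP2 and 79 for the interaction. With the 8 shAKAP2 libraries alone 6313 genes (43.5%) and 103 relatives (51.5%) were called, and DESeq2 called 300 genes in shScramble. The causes were not tested. Of 1080 values of named relatives and neighbours, 34 lost and 2 gained a call and 0 reversed; HIBADH gained it.

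Same-numbered libraries of different groups deviated together in 4 of 24 pairs (r over 0.1). In shScramble 3 of 4 such pairs did, at r 0.04 to 0.52, as did 5 of 12 pairs of unlike number, and in shAKAP2 1 of 4, at r 0.0022 to 0.11. Since not every pair passed, the numbers were not taken as pairs, though shScramble hints at shared numbers. A replicate block gave 4543 calls in shAKAP2, 173 in shScramble and 2914 for the interaction. The word search in the longest 3' UTR found the same 6 genes; of its 6-letter parts GAACAC stood in 6 and AACACA in all 7, but in 29.5% and 41.3% of genes.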
